A study of Mus musculus with 8 samples.

Results

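The genes described are 44 lysosomal genes out of 35583 in the deposited tables: glycosidases, sulfatases, lipid hydrolases, lipid-binding helper proteins, membrane proteins and sorting factors. They were picked by name, leaving out the cathepsins and the proton pump, and each name matched exactly 1 row. Their RNA was measured by bulk sequencing in microglia, the resident macrophages of the brain. The cells came from young mice of wild-type genotype, and from the hypothalamus alone. All mice had received dye-labelled plasma protein 20 hours earlier, so both groups share the injection. Sorting divided the cells into plasma-positive microglia, which carried the label, and plasma-negative microglia, which did not, with 4 libraries each. The labels do not give the sex, the exact age, the number of animals pooled or whether libraries with the same number share an animal. P-values therefore measure only the spread between these libraries, which may be partly technical.

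Lysosomes are acidic organelles in which cells break down what they take up and what they recycle from within. Most of their hydrolases are soluble glycoproteins that carry a mannose 6-phosphate tag and are delivered by mannose 6-phosphate receptors, while heavily glycosylated membrane proteins line the organelle and transporters let the products out. Small helper proteins lift lipids out of membranes so that hydrolases can reach them. The transcription factor TFEB binds E-box sequences built around CACGTG upstream of many lysosomal genes. Inherited loss of many of these proteins causes lysosomal storage diseases, in which undigested material builds up in cells, often in the brain.

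Total counts per library lay between 2963094 (plasma-negative replicate 4) and 21422738, and log2 totals did not differ between groups beyond their spread (p = 0.8 in a two-sided exact permutation test of 4 against 4 libraries). Levels below are CPM, counts scaled to a common library size after TMM normalization, unless RPKM, which is scaled by exon length too, is named. All 8 microglial markers were present. Marker sums of some other cell types were high in single libraries. For neurons the sum was 254 CPM in plasma-positive replicate 2 and at most 60.8 CPM elsewhere. For blood monocytes or neutrophils it was 474 CPM in plasma-positive replicate 3, nearly all S100a8 and S100a9, and at most 13.8 CPM elsewhere, with Ly6g at 0 throughout. Oligodendrocyte markers summed to between 157 and 230 CPM in plasma-negative and between 222 and 514 CPM in plasma-positive libraries. Among them Cnp was higher in every plasma-positive library, at 153 to 182 CPM against 68.9 to 123 CPM, a log2 fold change of 0.71 that did not pass (edgeR, adjusted p = 0.113). Border macrophage markers summed to at most 3.61 CPM in plasma-negative libraries. In plasma-positive replicates 1 to 4 the sums were 1.76, 12.8, 1.98 and 15.8 CPM, mostly Mrc1. The log2 fold change of Mrc1 was 2.93 with an SE of 1.51 and did not pass (edgeR, adjusted p = 0.429). Cd163, Lyve1 and F13a1 were at 0 throughout. Endothelial and astrocyte sums overlapped between the groups (at most 59.5 and 322 CPM). The astrocyte sum was mostly Slc1a3, at 196 to 317 CPM in plasma-negative and 164 to 197 CPM in plasma-positive libraries (log2 fold change -0.36, edgeR, adjusted p = 0.326). Slc1a2 was at 19.4 and 67.5 CPM in plasma-positive replicates 1 and 2 and at most 7.74 CPM elsewhere (log2 fold change 2.74, edgeR, adjusted p = 0.323). Of the 36 genes in these 6 lists 13 were tested and none passed (edgeR), with 3 higher and 1 lower at an unadjusted p under 0.05 and 2 called higher by DESeq2. Over all tested genes these shares were 7.13%, 6.67% and 3.24%. Of the 8 microglial markers 2 rose in edgeR (Csf1r and Olfml3, against 0.844% of all tested genes) and DESeq2 called 4 higher (3.24% of all), with 7 fitted above 0 and a median log2 fold change of 0.22. At an unadjusted p under 0.05 in edgeR, 4 were higher (7.13% of all tested genes) and 1 lower (6.67%). The lower one was Cx3cr1, the fractalkine receptor, at -0.11 (edgeR, adjusted p = 0.232), or -0.19 when corrected for exon length and GC content (edgeR, adjusted p = 0.0429). The sum of the 8 was between 62857 and 74597 CPM in plasma-negative and between 70551 and 75864 CPM in plasma-positive libraries. Apart from leaving out each library in turn, the part of these cells in the results was not tested, and in bulk samples a change in cell numbers and a change in RNA per cell cannot be told apart.

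Because TFEB is itself among the 44 genes, the DNA upstream of the members is shown first, as the reference sequence that the expression values can be read against. RefSeq gene starts on build GRCm38.p6 were matched for 38 of the 44 genes, giving 44 promoters of 300 bases each (250 before the start and 50 after it). There was no entry for Aga, Galns, Hgsnat, Asah1, Npc1 and M6pr. The E-box core CACGTG, which reads the same on both strands, was found in 10 of the 44 promoters (22.7%), against 7.15% of all 32851 promoters in the table. Each of the 10 belongs to a different gene. The sequences below are written 5′ to 3′ along the gene, in lower case with the core in capitals. For Lamp1 the 250 bases before the start are given, since they hold 4 copies of the core between 61 and 15 bases before the start. For Psap, the member with the smallest p, the same 250 bases hold no copy, and they are shown for comparison. For the other 9 genes 30 bases around the copy nearest to the start are given.
Lamp1, chr8:13158911-13159160, plus strand: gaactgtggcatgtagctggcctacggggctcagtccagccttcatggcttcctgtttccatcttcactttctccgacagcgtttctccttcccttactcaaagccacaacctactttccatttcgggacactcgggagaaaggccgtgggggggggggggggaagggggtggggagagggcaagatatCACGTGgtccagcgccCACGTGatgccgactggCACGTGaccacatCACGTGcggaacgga
Psap, chr10:60277378-60277627, plus strand: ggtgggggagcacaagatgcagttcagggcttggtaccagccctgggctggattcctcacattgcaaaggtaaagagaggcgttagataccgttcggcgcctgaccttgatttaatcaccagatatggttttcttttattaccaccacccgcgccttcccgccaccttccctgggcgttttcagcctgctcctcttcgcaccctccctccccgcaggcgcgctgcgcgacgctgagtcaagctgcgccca
Mcoln1, chr8:3500462-3500491, plus strand: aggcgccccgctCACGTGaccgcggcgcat
Cln3, chr7:126583340-126583369, minus strand: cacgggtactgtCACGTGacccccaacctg
Glb1, chr9:114401018-114401047, plus strand: ctgcttctgagtCACGTGgcctacagaggc
Naglu, chr11:101070009-101070038, plus strand: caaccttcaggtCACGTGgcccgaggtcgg
Gaa, chr11:119267811-119267840, plus strand: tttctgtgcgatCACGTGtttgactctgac
Sgsh, chr11:119355522-119355551, minus strand: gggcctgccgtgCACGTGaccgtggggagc
Arsa, chr15:89477423-89477452, minus strand: tcaactcagtgtCACGTGttgtctgctcct
Igf2r, chr17:12769696-12769725, minus strand: gccgactcaggtCACGTGacgctccgggga
Gla, chrX:134601182-134601211, minus strand: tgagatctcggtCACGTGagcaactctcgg
These letters describe the DNA and do not show binding. Lamp1 was the only one of the 7 genes that rose in plasma-positive microglia, named below, with the core in this window. Of the 29 matched genes that were tested and did not pass, 8 held it. Whether the core goes with the fold changes was not tested. Igf2r, with 2 copies, was nearly unexpressed. Further letter strings were searched on both strands. A longer palindrome around the core, as in the CLEAR element described for TFEB, was in 2 promoters (4.55%, against 0.326% of all), those of Cln3 and Igf2r, and at none of the risen genes. The related E-box TCACATG was in 8 promoters (18.2%, against 3.99% of all), among the risen genes only at Grn, and GGGCGG, the core of GC boxes common near start sites, was in 32 (72.7%, against 35.7%), at 5 of the 7 risen genes and at 21 of the 29 others tested. GGAAGTG, which holds the core bound by ETS factors such as PU.1 of macrophages, was in 8 (18.2%, against 11.0%), among the risen genes only at Laptm5.

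Levels of the members per length spanned a wide range. By mean RPKM the order of the first 6 was the same in both groups, Laptm5, Psap, Grn, Cd68, Hexa and Lamp1. Laptm5, a transmembrane protein of lysosomes in immune cells, stood at 1285 ± 91.2 RPKM in the plasma-negative group and 1738 ± 24.0 RPKM in the plasma-positive group (SD over 4 libraries). Psap followed at 961 ± 32.6 and 1417 ± 53.1 RPKM, and Grn at 641 ± 30.5 and 869 ± 26.1 RPKM. Cd68, the macrophage-specific relative of the LAMP proteins, and Hexa, the alpha subunit of beta-hexosaminidase, did not differ from each other beyond their spread in either group. Cd68 was at 524 ± 62.1 and 645 ± 32.6 RPKM, and Hexa at 474 ± 68.1 and 644 ± 21.7 RPKM. RPKM values of plasma-positive libraries are raised as a whole. Counts on genes make up between 81.4% and 84.2% of the library total that the authors' RPKM values imply there, and between 68.9% and 74.6% in plasma-negative libraries. A change between groups on the RPKM scale carries this shift. The CPM scale is not free of a group-wide difference either. Its TMM factors lay between 1.005 and 1.057 in plasma-negative and between 0.952 and 0.979 in plasma-positive libraries, without overlap. CPM and edgeR fold changes depend on these factors, so results with library totals only are given below.

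**Figure D1:**
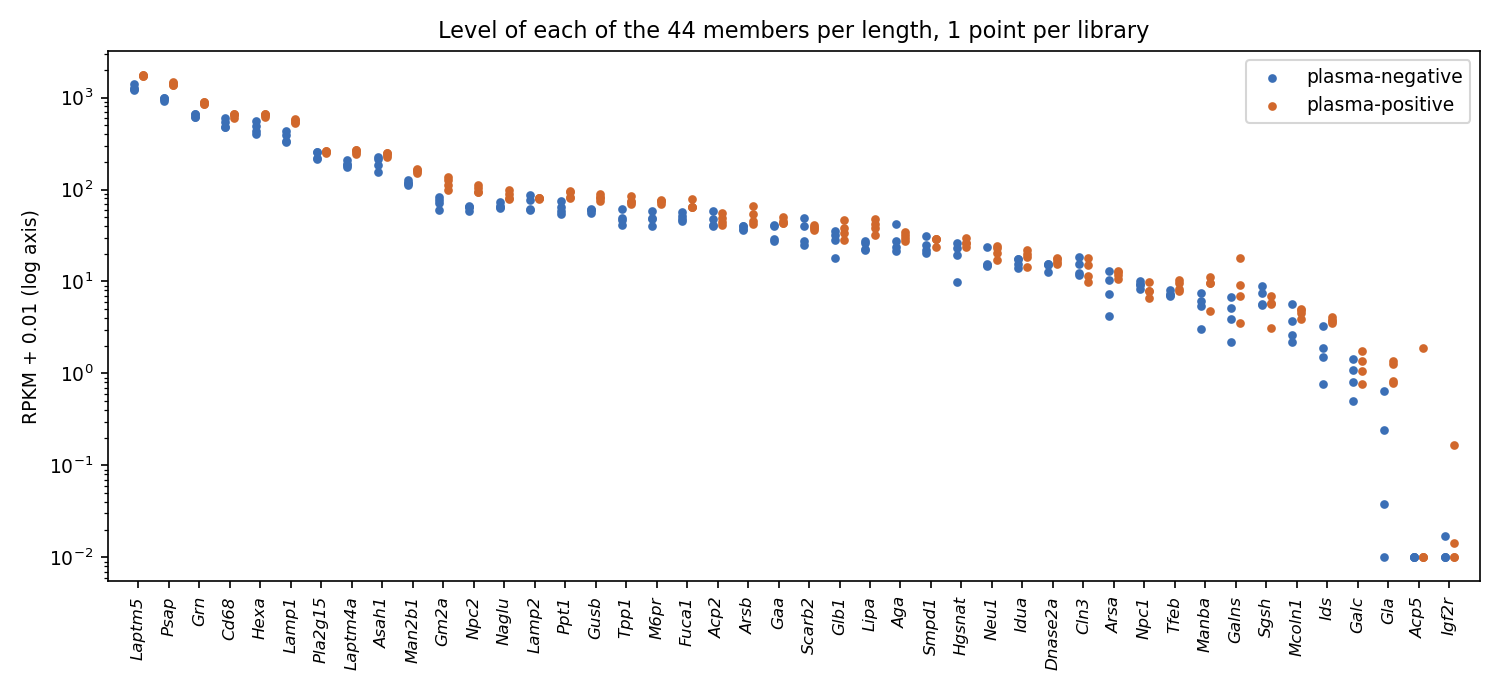
RPKM plus 0.01 on a log axis for each of the 44 members, ordered by mean level, with 1 point per library (blue plasma-negative, orange plasma-positive). Laptm5, Psap and Grn lie highest in both groups, and Acp5 and Igf2r lie at or near 0 in most libraries.

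At the bottom of the order were 2 genes that did not reach the expression filter. Acp5, the tartrate-resistant acid phosphatase of osteoclasts and some macrophages, had 0 counts in 7 libraries and 94 counts (4.77 CPM) in plasma-positive replicate 3, the library with the S100a8 and S100a9 signal. Igf2r, the large cation-independent mannose 6-phosphate receptor, had 35 counts (1.78 CPM) in plasma-positive replicate 2, the library with the most neuronal marker RNA, and at most 2 counts in any other. M6pr, the small cation-dependent receptor for the same tag, was at 229 CPM or more in every library. In these libraries the receptor transcript for tagged hydrolases was thus nearly all M6pr. Gla, the alpha-galactosidase, passed the filter but rested on few counts, 64, 2, 0 and 3 in the plasma-negative replicates 1 to 4 against 29, 98, 66 and 51 in the plasma-positive ones. Its log2 fold change of 2.10 had an SE of 1.26 (edgeR, adjusted p = 0.513). That value was 3.85 without plasma-negative replicate 1, 1.68 without plasma-negative replicate 3 and 3.62 with the replicate number as a block, not called in any of them.

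Of the 42 members tested, 7 rose in plasma-positive microglia and none fell at an adjusted p under 0.05 in edgeR's quasi-likelihood test, adjusted over all 13277 tested genes. The 7 were Psap, Laptm5, Grn, Npc2, Lamp1, Man2b1 and Gm2a. Among all tested genes 0.844% were called higher and 0.565% lower. The 7 rises were small, with log2 fold changes between 0.31 and 0.58. At an unadjusted p under 0.05, 17 members were higher (7.13% of all tested genes were) and 1, Npc1, was lower (6.67% of all). DESeq2 called 14 members higher, against 3.24% of the genes it tested, and none lower. The 14 were the same 7 with Gusb, Hexa, Lipa, Ppt1, Tpp1, Laptm4a and M6pr. Limma called 14 members higher on log2(RPKM + 1), against 2.92% of all tested genes, and 13 on log2(RPKM + 0.1), against 2.79%. On these RPKM scales the median over all genes was itself 0.11 and 0.16 above 0.

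Fold changes above 0 were fitted for 36 of the 42 members, against 50.4% of all tested genes. The median log2 fold change was 0.31 over the members and 0.01 over all tested genes. In 16 members every plasma-positive library lay above every plasma-negative one, which held for 5.68% of all tested genes. In none did every plasma-positive library lie below, which held for 4.59% of all. Together the 44 genes took 2.78% ± 0.0515 of all counts in the plasma-negative group and 3.17% ± 0.0477 in the plasma-positive group (SD over 4 libraries). Their summed level went from 26750 ± 1110 to 33140 ± 646 CPM, and the groups did not overlap. Without Laptm5, Psap and Grn it went from 13442 ± 776 to 16225 ± 344 CPM. With libraries scaled by their totals only, which moves the median of all genes to -0.11, the median of the members was 0.19.

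**Figure D2:**
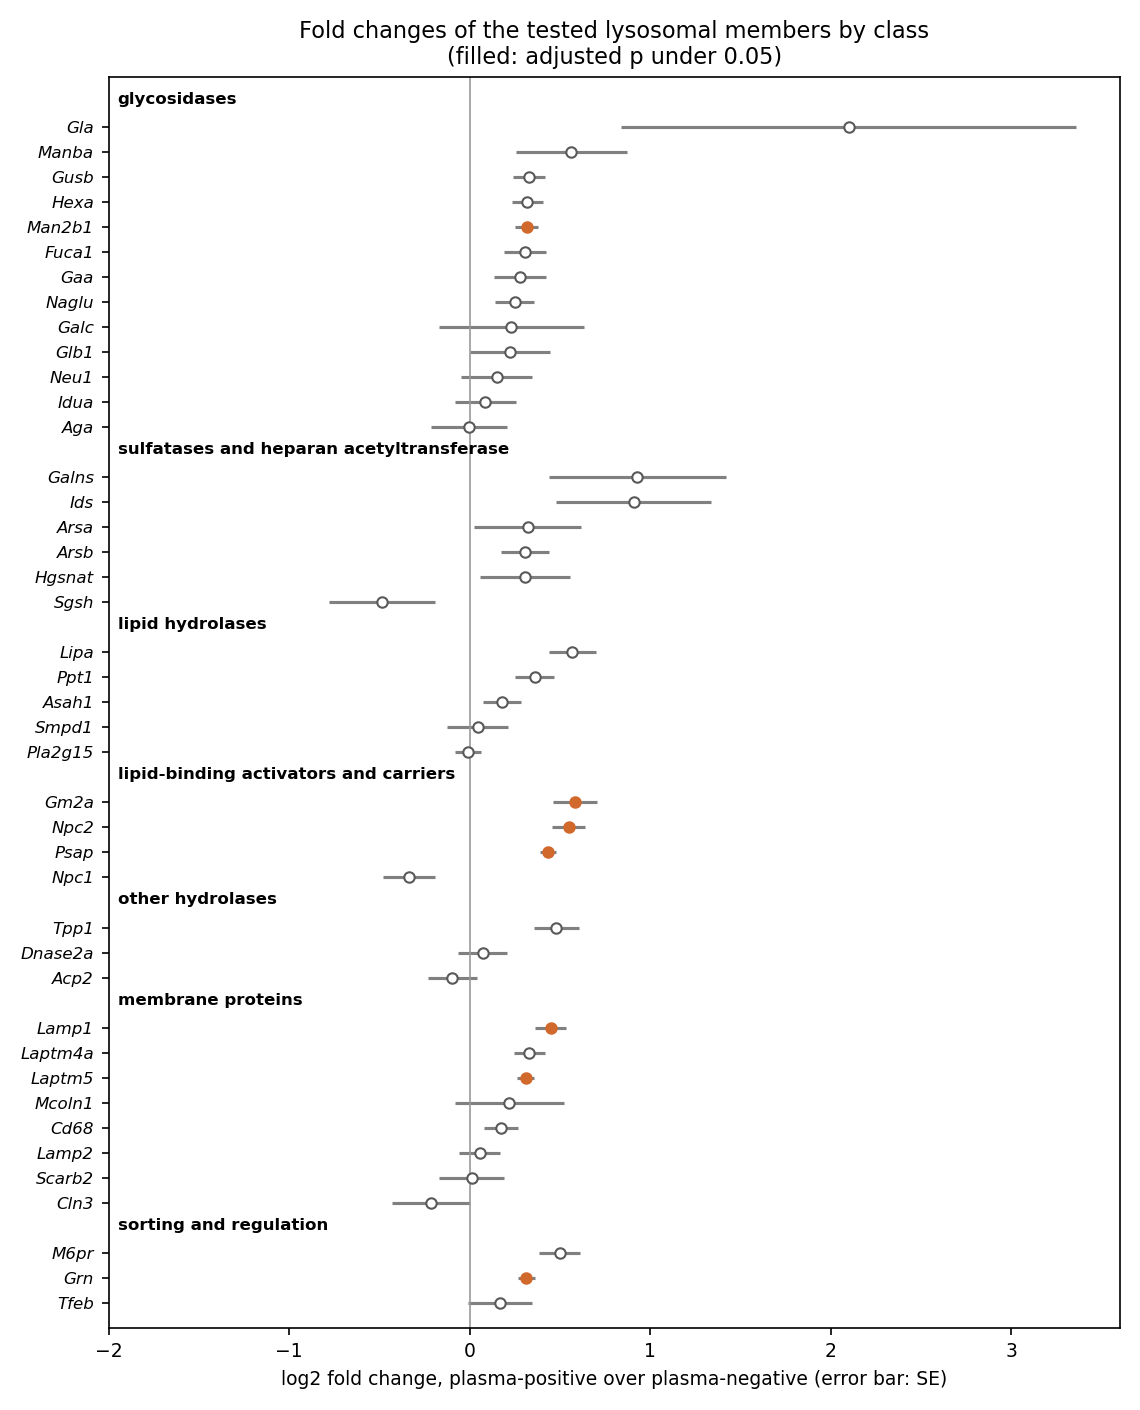
Log2 fold change of plasma-positive over plasma-negative microglia for the 42 tested members, grouped by class, with bars of 1 SE and filled points for an adjusted p under 0.05. The filled points are Man2b1, Gm2a, Npc2, Psap, Lamp1, Laptm5 and Grn, all between 0.31 and 0.58.

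How firmly a gene could be called went with its level. Of the 10 tested members with the highest mean CPM (at least 949), 5 rose, and of the other 32 only Npc2 and Gm2a did. The median SE of the log2 fold change was 0.08 in the first set and 0.17 in the second. The calls also leaned on single libraries. Leaving out 1 library at a time gave between 3 and 10 called members, while calls over all genes ranged from 66 to 203. There were 10 without plasma-negative replicate 4, the smallest library, 6 without plasma-positive replicate 3 and 5 without plasma-negative replicate 2. There were 3 without plasma-negative replicate 3, and 4 without plasma-negative replicate 1 or without plasma-positive replicate 1, 2 or 4. Psap, Laptm5 and Grn passed in all 8 such fits and Npc2 in 7, all but the one without plasma-negative replicate 3 (edgeR, adjusted p = 0.0566). Lamp1, Man2b1 and Gm2a passed in 2 each.

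Exon length and base composition can shift fold changes between libraries, so a correction for both was run (a loess curve per library). With it 3 members were called higher, Man2b1, Npc2 and Lipa, against 0.452% of all tested genes. The median over the members was then 0.17, and over all tested genes -0.01. Psap, Laptm5, Grn, Lamp1 and Gm2a kept their direction with smaller values and were not called. The 7 genes that rose had a median exon length of 3788 bases, and the other 35 tested members 4204.

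**Figure D3:**
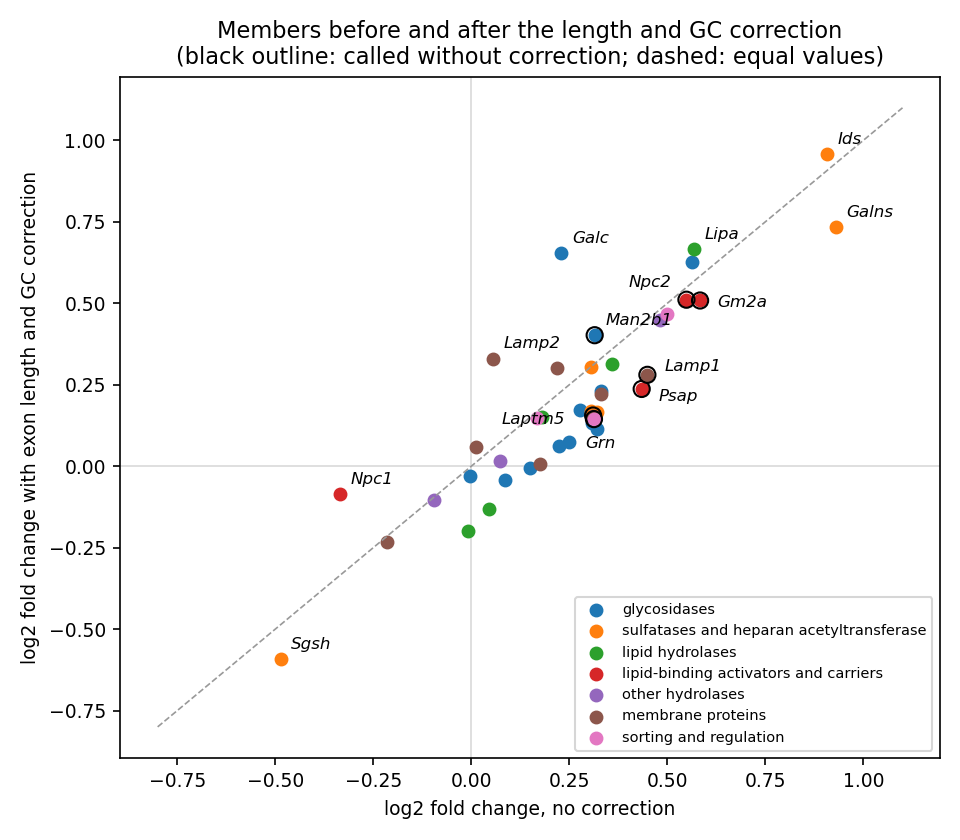
Log2 fold change of each tested member without (horizontal axis) and with (vertical axis) the correction for exon length and GC content, coloured by class, with a dashed line for equal values. Gla, at 2.10 and 2.02, lies outside the range drawn. Psap, Laptm5, Grn and Lamp1 lie below the line, while Man2b1, Lipa, Lamp2 and Galc lie above it.

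In the class of lipid-binding helpers 3 of 4 genes rose. Gene coordinates are those of the deposited tables, for which the submitters' notes name build mm10. Psap (ENSMUSG00000004207, chromosome 10, 60277627 to 60302597) encodes prosaposin, which is cut into the saposins that present sphingolipids to their hydrolases. It was at 3687, 3685, 3458 and 3595 CPM in plasma-negative replicates 1 to 4 and at 4955, 4981, 4652 and 4910 CPM in plasma-positive ones. The groups did not overlap and the spread within each was small. The log2 fold change was 0.43 with an SE of 0.04 (adjusted p = 0.00162 in edgeR), and with the length and GC correction it was 0.24 (edgeR, adjusted p = 0.0558).

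Gm2a (ENSMUSG00000000594, chromosome 11, 55098115 to 55113029) encodes the activator that hands ganglioside to beta-hexosaminidase. It was at 403, 444, 345 and 452 CPM in plasma-negative and at 706, 648, 506 and 601 CPM in plasma-positive libraries. All plasma-positive values were higher, with replicate 3 nearest to the other group. Its log2 fold change was 0.58 with an SE of 0.12 (edgeR, adjusted p = 0.0376), while the corrected value was 0.51 (edgeR, adjusted p = 0.0955). It was not called with RLE scaling or with library totals only either, at 0.56 and 0.47 (adjusted p = 0.052 and 0.0729 in edgeR). Without a single library the adjusted p reached 0.115 in edgeR, and the fits without plasma-negative replicate 1, 2 or 3 or plasma-positive replicate 1, 2 or 4 did not pass.

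Npc2 and Npc1 work in sequence, the first a soluble protein that picks up cholesterol inside the lysosome and the second the membrane protein that carries it out. Npc2 (ENSMUSG00000021242, chromosome 12, 84754562 to 84773152) was at 480, 491, 442 and 476 CPM in plasma-negative and at 644, 699, 634 and 786 CPM in plasma-positive libraries. Its rise was 0.55 (log2, SE 0.09, edgeR, adjusted p = 0.0134), and 0.51 with the length and GC correction (edgeR, adjusted p = 0.0384). Npc1 was at 147, 131, 143 and 155 CPM in plasma-negative and at 111, 137, 112 and 96.5 CPM in plasma-positive libraries. Only plasma-positive replicate 2 lay within the plasma-negative range. Its log2 fold change of -0.34 (SE 0.14) did not pass (edgeR, adjusted p = 0.322) and was -0.09 with the correction. The ratio of their RPKM values was 6.85 ± 0.645 in the plasma-negative group against 12.9 ± 2.80 in the plasma-positive group (SD, n = 4), without overlap. This ratio was looked at after the values were seen and was not tested.

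**Figure D4:**
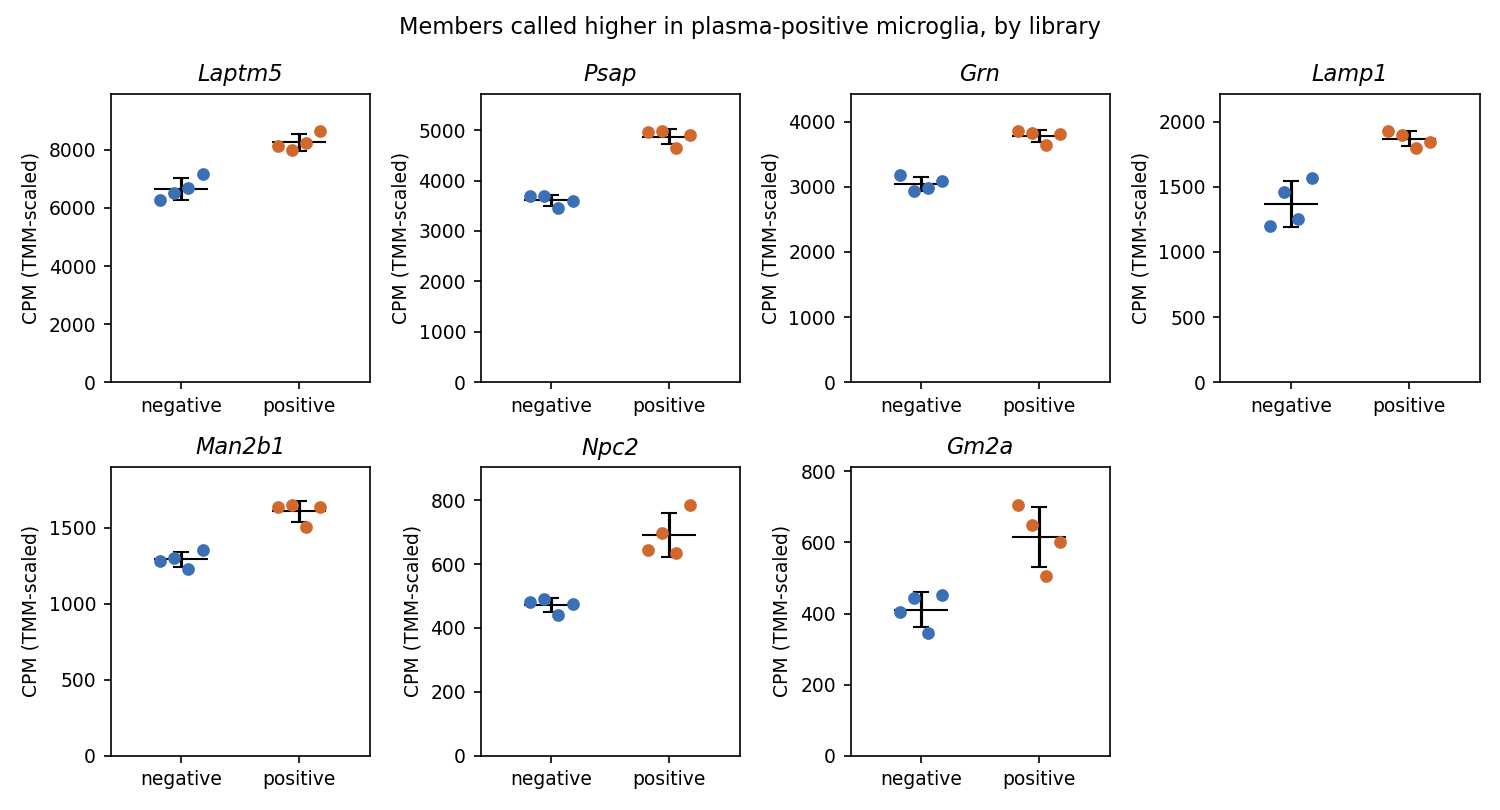
CPM of the 7 members called higher, 1 point per library, with the mean and SD of each group of 4 (black) on axes that start at 0. In each panel all plasma-positive points lie above all plasma-negative points, and the log2 fold change is largest for Gm2a and Npc2, at 0.58 and 0.55.

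Among the membrane proteins 2 of 8 rose. Laptm5 (ENSMUSG00000028581, chromosome 4, 130913125 to 130936141) was at 6271, 6504, 6690 and 7160 CPM in plasma-negative and at 8139, 7990, 8249 and 8646 CPM in plasma-positive libraries. Its log2 fold change was 0.31 with an SE of 0.05 (adjusted p = 0.00801 in edgeR), and 0.16 with the correction (edgeR, adjusted p = 0.288). Laptm4a, a widely expressed relative of Laptm5, was at 428 to 507 CPM in plasma-negative and at 553 to 597 CPM in plasma-positive libraries. The groups did not overlap, but its log2 fold change of 0.33 did not pass (edgeR, adjusted p = 0.0849).

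Lamp1 and Lamp2 encode the main glycoproteins of the lysosomal membrane. Lamp1 (ENSMUSG00000031447, chromosome 8, 13159161 to 13175338) was at 1196, 1464, 1251 and 1566 CPM in plasma-negative and at 1928, 1900, 1800 and 1848 CPM in plasma-positive libraries. Lamp2 was at 782, 1016, 802 and 1124 CPM and at 938, 954, 971 and 1002 CPM. Both were higher in plasma-negative replicates 2 and 4 than in 1 and 3, and the plasma-positive libraries were close together. Lamp1 rose by 0.45 on the log2 scale with an SE of 0.09 (edgeR, adjusted p = 0.0259), while Lamp2 had 0.05 with an SE of 0.11 (edgeR, adjusted p = 0.893). With the length and GC correction the values were 0.28 and 0.33, neither called, so the order of the 2 genes depends on it. The ratio of their RPKM values lay between 4.98 and 5.57 in plasma-negative and between 6.58 and 7.34 in plasma-positive libraries, a difference that was not tested. Their exon lengths in the annotation are 2675 and 9552 bases. Exons of Grtp1 overlap 9.31% of the exon length of Lamp1, and strand use in counting is not given in the sources used here.

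The other 4 membrane proteins did not pass. Cd68 was at 927, 829, 1051 and 799 CPM in plasma-negative and at 1051, 924, 1015 and 1082 CPM in plasma-positive libraries, so the groups overlapped (log2 fold change 0.17, edgeR, adjusted p = 0.461). Scarb2, which carries beta-glucocerebrosidase to the lysosome, had means of 304 and 305 CPM. Mcoln1, the calcium channel mucolipin 1, had means of 36.9 and 43.2 CPM. Cln3, a membrane protein lost in a childhood storage disease, had means of 114 and 98.6 CPM. Mcoln1 and Cln3, whose promoter copies of CACGTG are printed above, had log2 fold changes of 0.22 and -0.22 (edgeR, adjusted p = 0.828 and 0.74).

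Of the 13 genes grouped as glycosidases, which trim sugars from glycoproteins, glycolipids and glycosaminoglycans, only Man2b1 rose, although 12 had fitted values above 0. Man2b1 (ENSMUSG00000005142, chromosome 8, 85083270 to 85098282), the lysosomal alpha-mannosidase, was at 1285, 1305, 1232 and 1352 CPM in plasma-negative and at 1638, 1653, 1506 and 1637 CPM in plasma-positive libraries. Replicate 3 was the lowest in both groups, and the groups did not overlap. Its log2 fold change was 0.31 with an SE of 0.06 (edgeR, adjusted p = 0.0294). It was larger with the correction, at 0.40 (adjusted p = 0.027 in edgeR). It was 0.20 with library totals only (adjusted p = 0.116 in edgeR), and it just missed a call with RLE scaling (adjusted p = 0.0509) and with no filter (adjusted p = 0.0508). The fits without plasma-negative replicate 1, 2 or 3 or plasma-positive replicate 1, 2 or 4 did not pass, with adjusted p in edgeR up to 0.093. For Lamp1 the fits that did not pass were those without plasma-negative replicate 1 or 3 or any 1 plasma-positive library.

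Hexa, at nearly the same CPM, was at 1348, 1212, 1115 and 1493 CPM in plasma-negative and at 1594, 1632, 1529 and 1693 CPM in plasma-positive libraries. The groups did not overlap, with replicate 4 the highest of each, and the log2 fold change of 0.32 did not pass (edgeR, adjusted p = 0.104). It was called without plasma-negative replicate 4, while the length and GC correction gave 0.11 (edgeR, adjusted p = 0.692). Gusb, the beta-glucuronidase, had means of 370 and 465 CPM and Fuca1, the alpha-fucosidase, 225 and 279 CPM. Neither overlapped between groups and neither passed (edgeR, adjusted p = 0.0964 and 0.252). The remaining glycosidases cleave heparan sulfate (Naglu and Idua), glycogen (Gaa), beta-galactosides (Glb1), beta-mannosides (Manba), sialic acid (Neu1) or galactosylceramide (Galc). All 7 overlapped between the groups and had log2 fold changes between 0.09 and 0.56. Aga, grouped with them although it splits the link between sugar and asparagine, had means of 90.3 and 89.6 CPM. The class summed to 4112 ± 262 CPM in the plasma-negative and 5056 ± 158 CPM in the plasma-positive group (SD over 4 libraries), and its median log2 fold change was 0.28. That median was 0.13 with the length and GC correction and 0.17 with library totals only.

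No sulfatase rose or fell, nor did Hgsnat, the acetyltransferase that works beside them on heparan sulfate. Arsb was higher at an unadjusted p under 0.05 in edgeR, and DESeq2 and limma on RPKM called none of the 6. Arsb, which removes sulfate from dermatan and chondroitin sulfate, was the highest of the class, at 300, 334, 333 and 303 CPM in plasma-negative and at 497, 342, 406 and 326 CPM in plasma-positive libraries. Its groups overlapped, and 39.9% of its exon length is shared with other annotated genes. Galns, a keratan sulfate sulfatase, was at 24.4, 8.12, 18.9 and 13.8 CPM in plasma-negative and at 11.8, 30.1, 59.0 and 23.6 CPM in plasma-positive libraries. Plasma-positive replicate 3 stood highest, replicates 1 and 4 lay within the plasma-negative range, and the log2 fold change, 0.93 with an SE of 0.49, did not pass (edgeR, adjusted p = 0.44). Ids, which starts the breakdown of heparan and dermatan sulfate, had between 5.22 and 22.9 CPM and between 22.4 and 26.3 CPM, with a log2 fold change of 0.91 (edgeR, adjusted p = 0.382). Sgsh, the heparan sulfamidase, had the lowest fitted value of all members, -0.49 with an SE of 0.30 (edgeR, adjusted p = 0.521). Arsa, the sulfatide sulfatase, and Hgsnat had 0.32 and 0.31.

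None of the 5 lipid hydrolases passed, though 2 of them, Lipa and Ppt1, were higher at an unadjusted p under 0.05 in edgeR and were called by DESeq2. Limma called 2 on log2(RPKM + 1) and 1 on log2(RPKM + 0.1). Lipa, the acid lipase that frees cholesterol from its esters, was at 206, 214, 257 and 237 CPM in plasma-negative and at 403, 317, 354 and 283 CPM in plasma-positive libraries. The groups did not overlap and the log2 fold change was 0.57 with an SE of 0.13, just short of a call (edgeR, adjusted p = 0.0548). With the length and GC correction it was 0.67 and called (edgeR, adjusted p = 0.0449). Ppt1, a thioesterase that takes palmitate off proteins, had means of 316 and 405 CPM without overlap (edgeR, adjusted p = 0.147). Pla2g15, the lysosomal phospholipase A2 and the highest of the class by its mean over all libraries, stood at 977 ± 71.4 and 971 ± 21.9 CPM (SD, n = 4), with a log2 fold change of -0.01 and an SE of 0.07. Asah1, the acid ceramidase, was close to it with means of 908 and 1028 CPM, and Smpd1, the acid sphingomyelinase, had 113 and 117 CPM, with both overlapping between groups.

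In the remaining hydrolases none of 3 tested genes passed. Tpp1, a peptidase, was at 350, 297, 331 and 428 CPM in plasma-negative and at 488, 441, 468 and 563 CPM in plasma-positive libraries. The groups did not overlap, replicate 4 was the highest in each, and the log2 fold change of 0.48 (SE 0.12) did not pass (edgeR, adjusted p = 0.0849). It was the 1 gene of the class at an unadjusted p under 0.05 in edgeR and the 1 called by DESeq2 and by limma on RPKM. The acid phosphatase Acp2 and the nuclease Dnase2a had log2 fold changes of -0.10 and 0.07, and exons of Mast1 overlap 30.0% of the exon length of Dnase2a.

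Among the sorting and regulatory genes Grn rose. Grn (ENSMUSG00000034708, chromosome 11, 102430315 to 102437048) encodes progranulin, a secreted and lysosomal glycoprotein that travels to lysosomes with prosaposin. It was at 3175, 2935, 2984 and 3093 CPM in plasma-negative and at 3854, 3820, 3646 and 3816 CPM in plasma-positive libraries. There was no overlap, and the log2 fold change was 0.31 with an SE of 0.05 (adjusted p = 0.00801 in edgeR), and 0.14 with the length and GC correction (edgeR, adjusted p = 0.257). Scaled by library totals only it was 0.20 and not called (edgeR, adjusted p = 0.0515). M6pr was at 270, 285, 229 and 323 CPM in plasma-negative and at 366, 387, 401 and 409 CPM in plasma-positive libraries. Its groups did not overlap either, but its log2 fold change of 0.50 (SE 0.11) did not pass (edgeR, adjusted p = 0.0558), and it was called without plasma-negative replicate 4. Tfeb was at 56.5, 64.1, 54.6 and 53.8 CPM and at 68.2, 58.3, 72.9 and 58.2 CPM. Its groups overlapped, with a log2 fold change of 0.17 and an SE of 0.18 (edgeR, adjusted p = 0.749).

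A second list of 60 lysosomal genes outside the 44 was set beside them. It holds further hydrolases, tag-making enzymes, transporters, channels and the nutrient-sensing complex of the lysosomal surface. Of its 55 tested genes, 1 rose and none fell (edgeR), with 9 higher and 3 lower at an unadjusted p under 0.05 and 2 called higher and none lower by DESeq2. Over all tested genes the shares were 0.844% called higher, 7.13% and 6.67% higher and lower at an unadjusted p under 0.05, and 3.24% called higher by DESeq2, so 1 and 3 of 55 are near them. The list had a median log2 fold change of 0.10 and 34 genes fitted above 0, where 50.4% of all tested genes were. The 1 was Cd63, a tetraspanin of late endosomes and lysosomes, at 146, 127, 151 and 184 CPM in plasma-negative and at 238, 229, 212 and 266 CPM in plasma-positive libraries. Its groups did not overlap, and its log2 fold change was 0.64 with an SE of 0.14 (edgeR, adjusted p = 0.0452). With a library left out it passed in 1 fit out of 8. Corrected for length and GC its log2 fold change was 0.48 (edgeR, adjusted p = 0.197). Gpnmb, a lysosomal glycoprotein of lipid-laden macrophages, and the channel genes Mcoln2 and Mcoln3 had 0 counts in every library.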

How the data were processed

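RNA was amplified with Smart-seq2 and sequenced, per the labels' protocols. The submitters' processing notes name bcl2fastq, Trim Galore, STAR, HTSeq and build mm10; versions, strand use and the treatment of reads mapping to several genes are not given in the sources used here. The authors deposited whole-number counts per gene and RPKM, which carries a scaling by length and library total. Counts were scaled by TMM and tested with edgeR 4.0.16 (quasi-likelihood, its default low-count filter, Benjamini-Hochberg adjustment, 13277 genes) in R 4.3.3, plasma-positive against plasma-negative, 4 libraries each. Alternatives used DESeq2 1.42.0, limma 3.58.1 on log2(RPKM + 1) and log2(RPKM + 0.1), other scalings and filters, a per-library loess correction (span 0.3) for exon length (GENCODE M21) and GC content, the replicate number as a block, and each library left out.

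The members and lists were chosen with earlier results of these data known, so no p-value was adjusted over them alone. Named with values are all called members, the highest and the most changed of each class, Psap, Lamp1, Lamp2, Cd68, Grn, Tfeb, M6pr, Igf2r and the untested members, and others briefly.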

Additional observations from a re-analysis of the deposited data

Results flagged for a closer look

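Of 100 groups of 4 libraries checked with Dixon's test (member levels and class sums), 5 held 1 library far from the other 3, and chance alone gives about 5% of groups. Man2b1 was at 1506 CPM in plasma-positive replicate 3, with the nearest other library of the group at 1637 CPM. In the same library the summed level of the lipid-binding activators and carriers was 5904 CPM (nearest 6393 CPM), and that of the sorting and regulation genes was 4120 CPM (nearest 4267 CPM). This is the library with the S100a8 and S100a9 signal, and a link between that signal and these low values was not tested. Without this library 6 members were called, and without plasma-positive replicate 1, 2 or 4 there were 4. Neu1, the sialidase, was at 122 CPM in plasma-negative replicate 1 (nearest 80.3 CPM), and Dnase2a at 95.4 CPM in plasma-negative replicate 2 (nearest 111 CPM).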

How the results depend on the processing

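The count of members called higher was 7, and no alternative called a member lower. It was 4 with library totals only (Psap, Npc2, Lamp1 and Laptm5), 5 with RLE scaling, 14 with DESeq2, 14 and 13 with limma on log2(RPKM + 1) and log2(RPKM + 0.1), and 3 with the length and GC correction. It was 12 at an adjusted p under 0.1 (3.07% of all tested genes) and 3 under 0.01 (0.346% of all), and from 3 to 10 with 1 library left out. The genes called over all tested genes, 187, became 227 with library totals only, where fewer members were called, 965 with DESeq2, 447 and 432 with limma, 82 with the length and GC correction, and from 66 to 203 with 1 library left out.

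The labels do not say what the replicate numbers share, so the numbers were not taken as pairs. Deviations of same-numbered libraries from their group means correlated at 0.0119, 0.0126, 0.0109 and 0.0315. These deviations also hold each library's own noise, so low correlations cannot show whether animals are shared. With the replicate block 74 genes and 5 members were called, and Lamp1 (edgeR, adjusted p = 0.0537) and Man2b1 (edgeR, adjusted p = 0.0645) were not. With the replicate block and the length and GC correction together 20 genes and 0 members were called (15 members higher at an unadjusted p under 0.05 in edgeR), and the members' median was 0.21.

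The median log2 fold change of the members, 0.31, was 0.19 with library totals only, 0.42 and 0.43 with limma (which carries a median over all genes of 0.11 and 0.16), and 0.17 with the length and GC correction. The log2 ratio of their summed CPM, 0.31, was 0.19 with library totals only. Over 133 values for the 7 called members 94 kept the call, 39 lost it and 0 changed sign. The cause of these differences was not tested.

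Sign changed only in members that were not called. With the length and GC correction Neu1 was at -0.0067, Idua at -0.042 and Smpd1 at -0.13, and with the replicate block added Idua was at -0.055, Smpd1 at -0.12 and Aga at 0.0028. Aga was at 0.022 with upper-quartile scaling, 0.000142 with no filter, 0.15 and 0.16 with limma and 0.035 with the replicate block. Pla2g15 was at 0.016 with upper-quartile scaling and 0.12 and 0.12 with limma, where Acp2 was at 0.031 and 0.032. With library totals only Idua was at -0.026, Smpd1 at -0.073, Dnase2a at -0.044, Lamp2 at -0.056 and Scarb2 at -0.099. Scarb2 was at -0.014 with RLE scaling, -0.014 with DESeq2 and -0.00085 with a mean count of at least 50. With 1 library left out Aga ranged from -0.11 to 0.22, Smpd1 from -0.040 to 0.19, Pla2g15 from -0.041 to 0.028, Acp2 from -0.17 to 0.012, Lamp2 from -0.020 to 0.16 and Scarb2 from -0.12 to 0.19.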

Other observations

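The order of libraries within a group was also looked at, after the values had been seen. Plasma-negative replicate 4, the smallest library, had the highest CPM of its group for 16 of the 42 tested members (38.1%), against 25.3% of all tested genes. Plasma-positive replicate 1 had the highest for 16 members (38.1%), against 23.9% of all. In 10 members, Lamp1, Lamp2, Man2b1, Gm2a, M6pr, Asah1, Gaa, Fuca1, Hgsnat and Idua, plasma-negative replicates 2 and 4 both lay above replicates 1 and 3, which held for 15.1% of all tested genes.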
